A study of Mus musculus with 18 samples.

Results

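The comparison set 6 arrays whose titles carry the codes mcw044 to mcw054 against 6 arrays with the codes mcw032 to mcw037, out of 18 arrays in the series. The arrays were chosen by the code in the title alone, and each range of codes has 2 arrays for each of the times 0, 1 and 4 h. All 12 were labelled as mouse immune cells, taken as a time zero control or 1 h or 4 h after treatment with a cell wall extract, which the design text says KO mice received. Genotype, strain, cell type, sex, age and animal are absent from the labels used here, which also do not say what the codes mean, so the 2 ranges are named here by their codes only. The remaining 6 arrays, codes 12-22, entered the filter on dim probe sets and are quoted only where they give context. Signals are on the linear scale of the deposited table, differences are log2 differences of codes 44-54 minus codes 32-37 on the log2(signal + 16) scale with time as a block, ± is the standard error, and adjusted p is from limma with Benjamini-Hochberg adjustment over all 25775 probe sets kept. Adding 16 understates the differences of dim genes. "Higher" and "lower" are used of codes 44-54 at adjusted p under 0.05. Where 3 signals are given for a range, they are the lowest, the median and the highest of its 6 arrays. Nothing in the labels says that the arrays of a range came from separate animals or cultures, so the p-values measure the spread between these arrays, which may be technical.

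Cells that divide switch on genes in waves: the E2F factors drive the genes of DNA replication at the entry to S phase, and the genes of mitosis follow in G2. Collagens, fibronectin and the enzymes that cross-link them are made mainly by fibroblasts and smooth muscle cells, which build the extracellular matrix of tissues. Macrophages mature from dividing progenitors under the cytokine CSF1, and as they do so they express a set of surface receptors, lysosomal enzymes and lineage factors such as PU.1 and MITF.

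The cell label was checked against marker genes. Of 15 macrophage markers measured, all were kept by the filter, and their mean log2 value was 12.50 to 12.69 on single arrays of codes 44-54, against 12.29 to 12.73 in codes 32-37. Few lymphoid markers passed the filter: 2 T cell, 3 B cell and 1 NK cell marker. The lymphoid markers not kept had highest signals of 133 or less, some of them above an array's median. Stromal and fibroblast markers, described below, had list means of 10.28 to 10.74 in codes 44-54, against 8.73 to 9.36 in codes 32-37. Neutrophil markers had list means of 6.83 to 7.80 in codes 44-54, against 7.72 to 8.48 in codes 32-37. The 3' to 5' signal ratio of the Gapdh control probe sets, a measure of RNA integrity and labelling, was 0.681 to 0.809 in codes 44-54 and 0.723 to 0.774 on 4 arrays of codes 32-37, but 1.28 on mcw036 (1 h) and 1.51 on mcw037 (4 h). The same ratio for actin was 1.30 to 1.56 in codes 44-54, above the 1.20 to 1.27 on those 4 arrays of codes 32-37. It was 2.44 on mcw036 and 1.98 on mcw037. The fit over all times and the fits at single times were therefore also run without mcw036 and mcw037. The Y-linked gene Eif2s3y had signals of 991 to 1060 on 3 arrays of codes 44-54 and 1236 to 1414 on 3 arrays of codes 32-37, and 2.87 to 60.0 and 3.20 to 25.2 on the other 3 of each range. Every range and time holds 1 array of each kind, so this difference is balanced between the ranges over 12 arrays. mcw036 and mcw037 are both of the low kind, so without them codes 32-37 have 3 high arrays and 1 low array, and only a high one at 1 h and at 4 h. The median signal was 78.4 to 106.6 in codes 44-54 and 74.7 to 108.1 in codes 32-37.

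Over all probe sets, 2159 of 25775 were higher (8.38%) and 1793 were lower (6.96%) in codes 44-54. Counted by gene, with the probe set of the highest mean signal standing for each of 11721 genes, 1051 were higher (8.97%) and 1110 were lower (9.47%). At least 4-fold differences were found for 18 higher and 63 lower genes. Of the 2161 called genes, 2148 differed the same way at 0, 1 and 4 h. Without mcw036 and mcw037, 1206 genes were higher (10.3%) and 1074 lower (9.16%), of which 893 and 873 were calls of the fit on 12 arrays, and no called gene changed sign. At 0 h alone, with 2 arrays a range, 240 genes were higher (2.05%) and 237 lower (2.02%). These 0 h counts depend on single arrays: by probe sets they were 457 higher and 357 lower, and 24 and 46 without mcw044, 50 and 127 without mcw047, 72 and 71 without mcw032, and 134 and 115 without mcw035. A further description, not limited to called genes, asked whether both arrays of codes 44-54 lay on the same side of both arrays of codes 32-37 at each time. This held for 930 genes on the higher side (7.93%) and 1202 on the lower side (10.3%). Counts of genes in the lists below are to be read beside the shares of all genes given here.

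**Figure D1:**
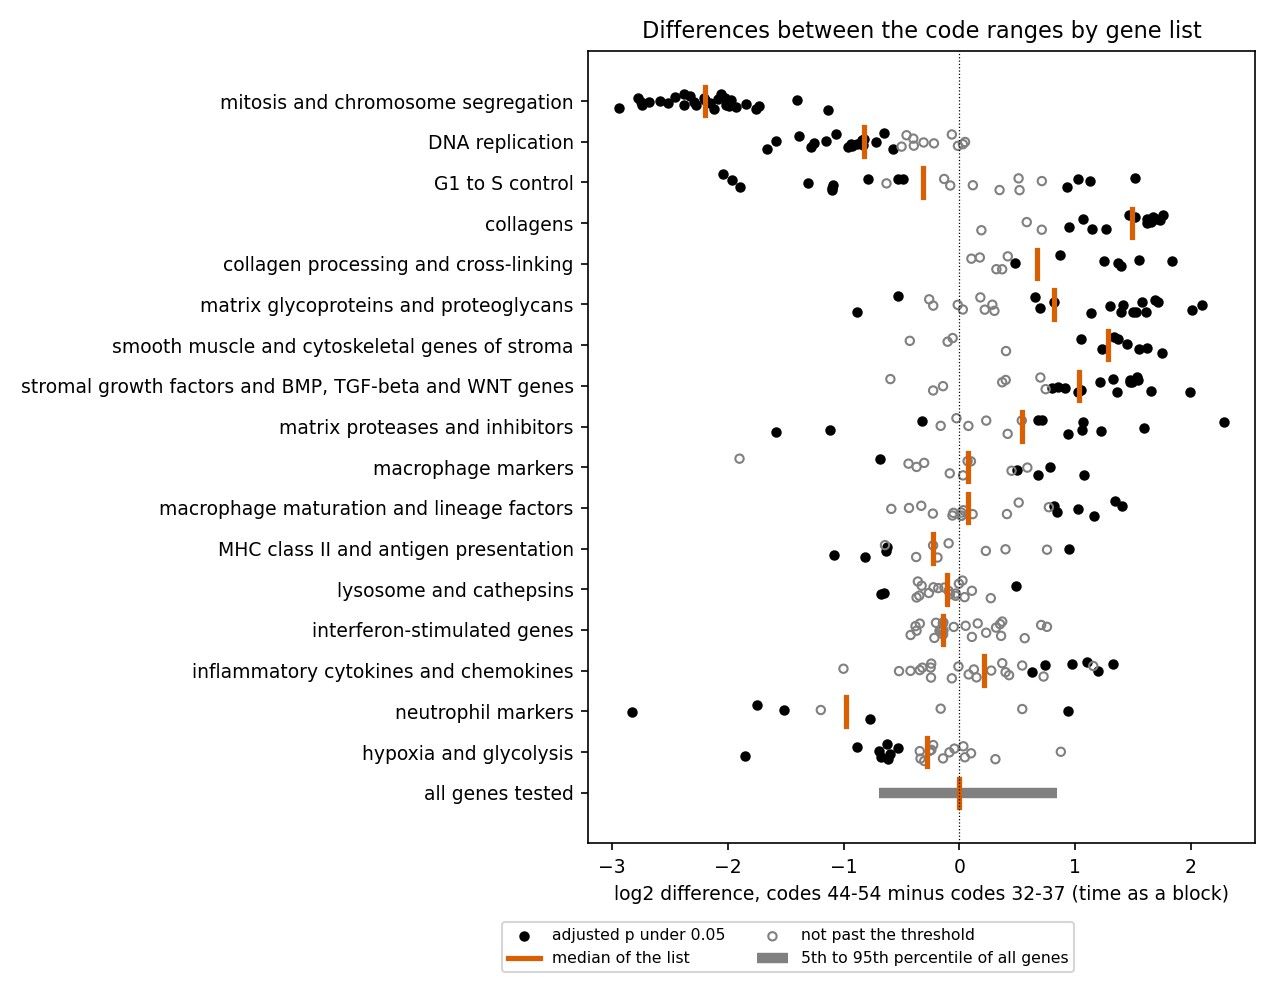
Log2 difference, codes 44-54 minus codes 32-37, on the x axis for each measured gene of 17 gene lists, with filled points for adjusted p under 0.05, open points for genes past no threshold, an orange line for the list median and a grey bar for the 5th to 95th percentile of all genes. The mitosis genes lie from -2.94 to -1.14, and the collagens from 0.19 to 1.76.

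Every measured gene of mitosis was lower in codes 44-54. All 29 measured of 30 listed passed, with a median log2 difference of -2.20 (range -2.94 to -1.14), against a median of 0.00 over all genes tested. Ccnb2, which encodes the mitotic cyclin B2, had signals of 361, 574 and 633 in codes 44-54, against 2720.4, 4523 and 5463 in codes 32-37. The highest array of codes 44-54 lay far under the lowest of codes 32-37, and the log2 difference was -2.94 ± 0.15 (adjusted p = 1.22e-06), or 7.70-fold lower. Nusap1, a protein that bundles spindle microtubules, had signals of 399, 585 and 796 in codes 44-54, against 3036, 4252 and 5051 in codes 32-37 (log2 difference -2.77 ± 0.12, adjusted p = 5.84e-07). Cenpa, the histone H3 variant that marks centromeres, had signals of 369, 663 and 751 in codes 44-54, against 2736, 4302 and 5669 in codes 32-37 (-2.75 ± 0.12, adjusted p = 5.84e-07). As for Ccnb2, no array of either gene overlapped between the ranges.

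Birc5, the survivin subunit of the chromosomal passenger complex, was lower by 6.69-fold, with signals of 520.2, 781 and 946 in codes 44-54, against 3929, 5446 and 5806 in codes 32-37. Cenpf, a kinetochore protein, was 6.43-fold lower (-2.68 ± 0.17, adjusted p = 5.03e-06), and Bub1, a kinase of the spindle checkpoint, 6-fold lower (-2.59 ± 0.17, adjusted p = 5.26e-06). Mki67, whose product is the proliferation antigen Ki-67, had signals of 1355, 1916 and 2493 in codes 44-54, against 7843, 9643 and 13558 in codes 32-37 (-2.38 ± 0.13, adjusted p = 2.38e-06). The kinase genes Cdk1 (-1.75), Plk1 (-2.29), Aurka (-2.20) and Aurkb (-2.46) were lower too, and the smallest differences of the list were those of Kif4 (-1.14) and Mad2l1 (-1.41). For all 29 genes the arrays of the 2 ranges lay apart at each time. The difference was present before the extract: 28 of the 29 were lower at 0 h, all but Kif4, against 2.02% of all genes. The 0 h median of the list was -2.30. All 29 were lower without mcw036 and mcw037 (median -2.27). In codes 12-22 the Ccnb2 signals were 714, 1191 and 2243, between those of the other 2 ranges.

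Further genes of cell division stood among the 15 largest differences on the lower side, outside the list. Cdca3, which promotes entry into mitosis, had signals of 306, 485 and 563 in codes 44-54, against 2584, 3108 and 4039 in codes 32-37, a log2 difference of -2.77 ± 0.12 (adjusted p = 5.84e-07). Nek2, a centrosomal kinase, stood at -2.66, Aspm, a protein of the spindle poles, at -2.60, and Cdkn3, a phosphatase that acts on CDKs, at -2.58.

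Promoters of late cell cycle genes in mouse and human are known for 2 short elements: the CCAAT box, bound by NF-Y, and the cell cycle genes homology region TTTGAA, bound by MuvB complexes. Both were searched on either strand, as the exact letters CCAAT and TTTGAA, in the 300 bases from 250 before to 50 after the start of each gene (RefSeq, build GRCm38.p6). A promoter was found for 25 of the 29 mitosis genes. CCAAT stood in 20 of these (80%), TTTGAA in 19 (76%) and both in 18 (72%). Among the 9523 kept genes with a promoter the shares were 38.6%, 11.7% and 4.77%, and they were 37.9%, 18.1% and 7.12% among all 27025 promoters. For 23 genes of DNA replication they were 65.2%, 13% and 8.7%, and for 12 collagens 41.7%, 16.7% and 0%. A match is a description of the letters, not of binding. The promoters of 4 mitosis genes that hold both elements and have the largest differences are shown because they let the letters be read beside the largest differences of the list. Capitals mark every CCAAT and TTTGAA on either strand, so that a copy on the minus strand reads ATTGG or TTCAAA, and no CCAAT overlaps a TTTGAA. They are Ccnb2 (chr9:70421505-70421804, minus strand), Cenpa (chr5:30666636-30666935, plus strand), Cenpf (chr1:189688037-189688336, minus strand) and Ube2c (chr2:164769679-164769978, plus strand), each printed 5′ to 3′ on the strand of the gene.
Ccnb2: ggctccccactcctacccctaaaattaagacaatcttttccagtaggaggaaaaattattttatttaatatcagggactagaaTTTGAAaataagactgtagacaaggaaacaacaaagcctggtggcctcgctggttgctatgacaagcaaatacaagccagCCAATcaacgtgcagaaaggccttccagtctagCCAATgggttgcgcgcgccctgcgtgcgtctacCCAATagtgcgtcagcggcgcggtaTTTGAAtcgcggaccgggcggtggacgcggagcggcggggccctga
Cenpa: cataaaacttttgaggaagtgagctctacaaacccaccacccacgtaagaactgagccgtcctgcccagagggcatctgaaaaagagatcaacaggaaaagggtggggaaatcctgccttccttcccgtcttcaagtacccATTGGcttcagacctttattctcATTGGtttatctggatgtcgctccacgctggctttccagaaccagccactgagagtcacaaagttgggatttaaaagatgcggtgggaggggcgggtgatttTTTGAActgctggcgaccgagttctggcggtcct
Cenpf: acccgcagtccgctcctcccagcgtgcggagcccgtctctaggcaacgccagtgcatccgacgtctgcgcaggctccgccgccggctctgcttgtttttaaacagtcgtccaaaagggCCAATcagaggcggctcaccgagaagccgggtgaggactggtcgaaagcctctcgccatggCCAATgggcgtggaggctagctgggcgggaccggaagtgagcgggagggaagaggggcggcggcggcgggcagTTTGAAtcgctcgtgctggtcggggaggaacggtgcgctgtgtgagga
Ube2c: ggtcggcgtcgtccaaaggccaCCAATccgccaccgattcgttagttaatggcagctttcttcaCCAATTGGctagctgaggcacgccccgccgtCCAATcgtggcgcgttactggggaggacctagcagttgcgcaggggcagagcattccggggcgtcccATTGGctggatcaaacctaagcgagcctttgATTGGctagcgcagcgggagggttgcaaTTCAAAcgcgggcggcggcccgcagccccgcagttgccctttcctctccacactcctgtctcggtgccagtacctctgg
Ccnb2 has 3 copies of CCAAT and 2 of TTTGAA, Cenpa and Cenpf have 2 and 1, and Ube2c, which encodes the ubiquitin conjugating enzyme of the anaphase promoting complex, has 6 and 1, where CCAATTGG counts as a copy on each strand. Ube2c had signals of 577, 749 and 884 in codes 44-54, against 2778, 4708 and 5749.5 in codes 32-37 (-2.52 ± 0.18, adjusted p = 8.34e-06).

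**Figure D2:**
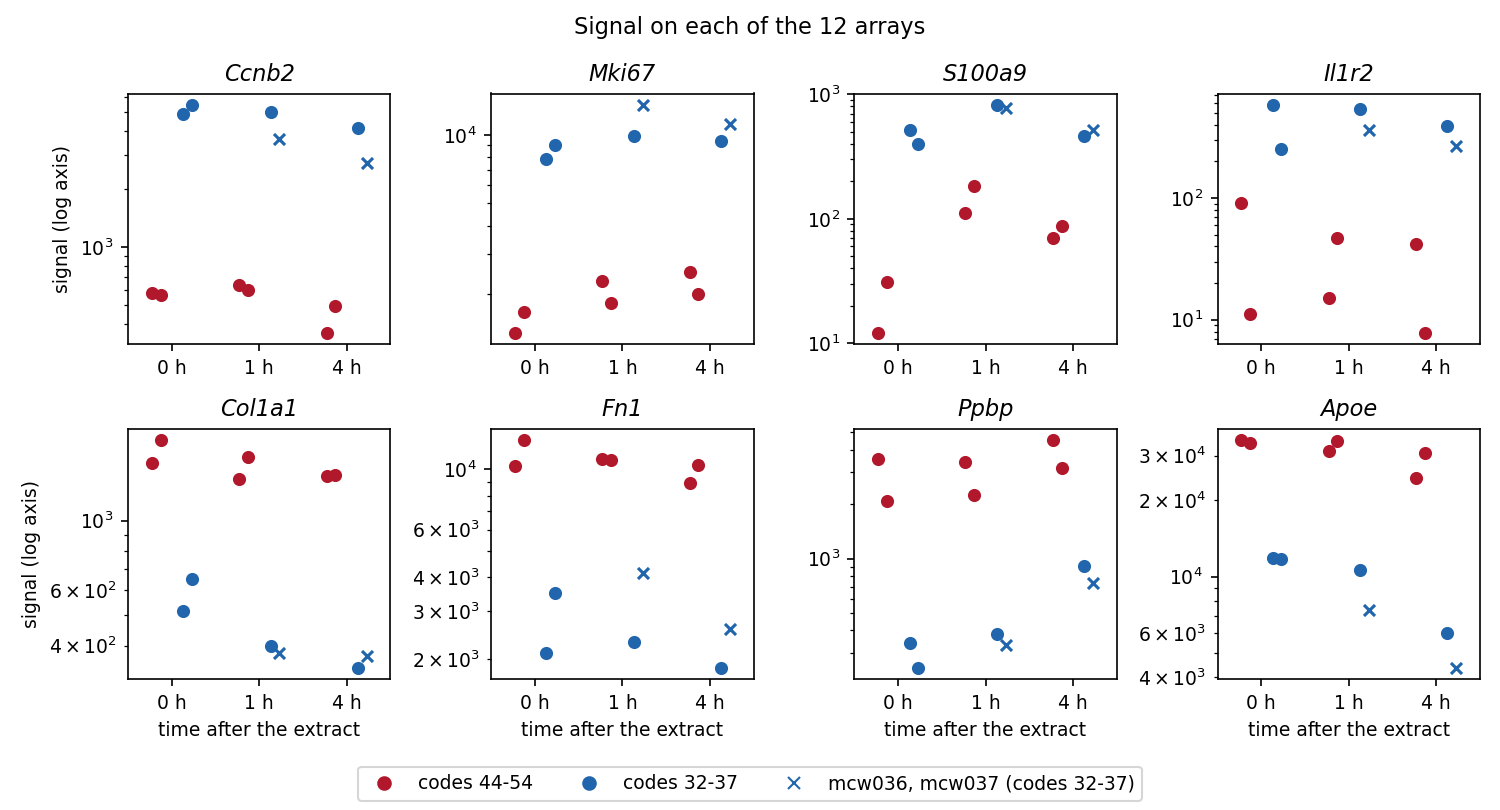
Signal on a log axis for 8 genes on each of the 12 arrays, by time after the extract, with codes 44-54 in red and codes 32-37 in blue; crosses mark mcw036 and mcw037. In each panel the 2 arrays of codes 44-54 lie on one side of the 2 arrays of codes 32-37 at 0, 1 and 4 h.

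Of 27 measured genes of DNA replication 17 were lower and none higher, with a median of -0.83 and a range of -1.66 to 0.05. Tk1, the thymidine kinase of S phase, had signals of 283, 642 and 767 in codes 44-54, against 1058, 1868 and 2914 in codes 32-37 (-1.66 ± 0.17, adjusted p = 0.000105). Mcm10, which helps to load the replicative polymerase, had signals of 151, 181 and 309.9 in codes 44-54, against 540.0, 604 and 731 in codes 32-37 (-1.59 ± 0.15, adjusted p = 7.67e-05), and Fen1, the nuclease that trims Okazaki fragments, 974, 1256 and 1498 in codes 44-54, against 2104, 3424 and 4344 in codes 32-37 (-1.39 ± 0.15). In these genes, too, the ranges did not overlap. Rrm1 and Rrm2, the subunits of ribonucleotide reductase, stood at -1.28 ± 0.10 and -1.15 ± 0.17, and Rfc4, a subunit of the clamp loader, at -1.26 ± 0.15. Among the 10 genes that did not pass were Tyms, the thymidylate synthase (0.05), Mcm2 (0.03) and Mcm6 (-0.01), subunits of the replicative helicase, and Pcna, the sliding clamp (-0.31). At 0 h alone 4 of the 27 were lower, against 2.02% of all genes.

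Regulators of the step from G1 to S went both ways, with 4 of 22 higher and 10 lower (median -0.31). Of all genes 8.97% were higher and 9.47% lower. Among the D cyclins, which start the cycle with CDK4 and CDK6, Ccnd2 was higher, with signals of 2006, 2254 and 2509 in codes 44-54, against 639, 782 and 895 in codes 32-37 (1.51 ± 0.12, adjusted p = 1.71e-05), and so was Ccnd1 (1.02), while Ccnd3 was lower (-0.49). The E cyclins, which act with CDK2, were lower: Ccne1 by 1.72-fold and Ccne2 by 2.14-fold. Myc, a growth-promoting factor, was higher, with signals of 489, 719 and 1449 in codes 44-54, against 159, 377 and 579 in codes 32-37, and the ranges overlap when the times are pooled (1.13 ± 0.21, adjusted p = 0.0047). E2f2 (-1.96 ± 0.20) and E2f8 (-1.31 ± 0.17) were lower, while E2f1 stood at -0.13 and was not called. Of the CDK inhibitors, Cdkn2c had signals of 237, 579.5 and 703 in codes 44-54, against 1369, 2147 and 2727 in codes 32-37 (-2.04 ± 0.16, adjusted p = 1.53e-05) and Cdkn2d stood at -1.89 ± 0.21, both lower. Cdkn2b was higher (0.93), and Cdkn1a, the p53 target p21, stood at -0.08 and was not called.

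Genes of the extracellular matrix ran the opposite way to those of mitosis. Of 16 measured collagens 13 were higher and none lower, with a median of 1.49. Col1a1, which encodes a chain of the main fibrillar collagen, had signals of 1355, 1461 and 1801 in codes 44-54, against 340.0, 389.6 and 652 in codes 32-37 (1.76 ± 0.12, adjusted p = 5.98e-06), or 3.39-fold higher. Its partner Col1a2 had signals of 4405, 5396 and 6407 in codes 44-54, against 1049.5, 1664 and 2163 in codes 32-37 (1.74 ± 0.14, adjusted p = 2.68e-05), and Col3a1 2022, 2480.4 and 3182 in codes 44-54, against 581, 768 and 979.5 in codes 32-37 (1.65 ± 0.14). In all 3 genes the lowest array of codes 44-54 lay above the highest of codes 32-37. Col6a1 (1.70 ± 0.18) and Col5a2 (1.68 ± 0.16) were higher by like amounts, as was Col4a1 (1.63 ± 0.24), a chain of basement membranes. Col14a1 (0.19), Col15a1 (0.71) and Col16a1 (0.58) did not pass. At 0 h 7 of the 16 were higher, against 2.05% of all genes, and all 16 differences were positive. Without mcw036 and mcw037, 15 of 16 were higher (median 1.66). Col2a1, a cartilage collagen outside the list, had signals of 143, 210.1 and 390.2 in codes 44-54, against 14.7, 51.9 and 101 in codes 32-37 and was among the 15 largest differences (2.09 ± 0.44, adjusted p = 0.00893). It was dim in codes 32-37, and its difference ran from 1.41 to 2.82 over 27 alternative settings.

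Markers of stromal cells and fibroblasts moved with these genes: 12 of 13 measured were higher and none lower (median 1.62). Their mean log2 value was 10.28 to 10.74 on the arrays of codes 44-54, against 8.73 to 9.36 in codes 32-37, and it was 7.33 to 7.84 in codes 12-22. The marker that did not pass was Pdgfra (0.67), and the markers not kept by the filter had signals of 86.1 or less. Pdgfrb, the PDGF receptor of pericytes and fibroblasts, had signals of 881, 1254 and 1982 in codes 44-54, against 174, 381 and 765 in codes 32-37 (1.69 ± 0.29, adjusted p = 0.00316). Col1a1, Col1a2, Col3a1, Col6a1 and Col6a2 stand in both lists, which are therefore not separate evidence. Of the stromal markers, Acta2 and Tagln also stand in the smooth muscle list below, and Loxl1 in that of collagen processing. In bulk RNA, fewer cells of a type and less RNA per cell cannot be told apart, and the part of stromal cells in the matrix results was not tested.

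**Figure D3:**
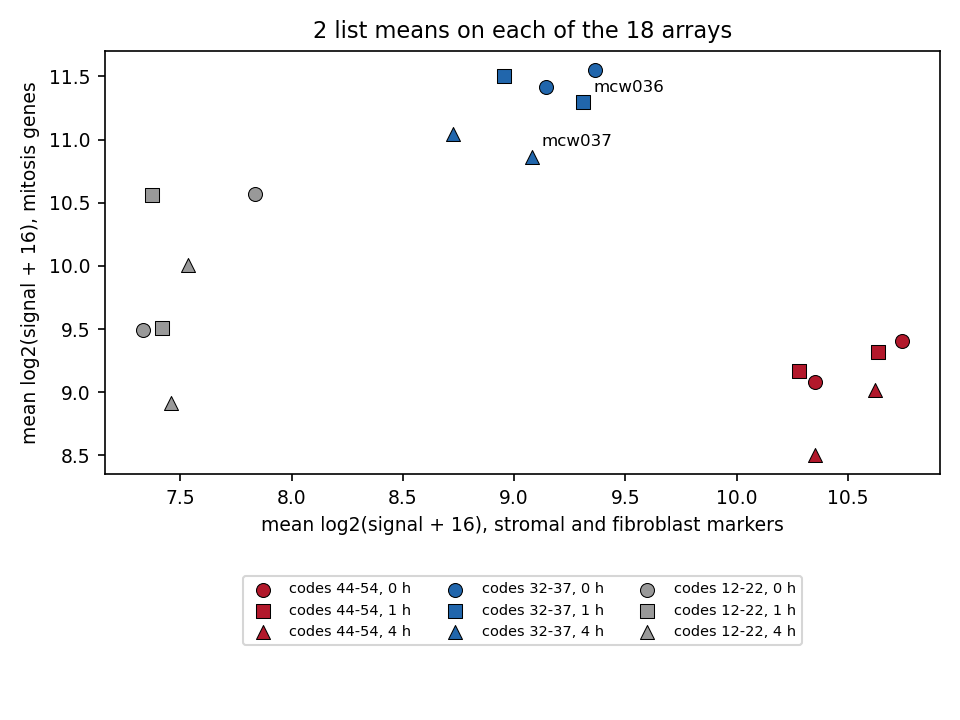
Mean log2(signal + 16) of 13 stromal and fibroblast markers on the x axis and of 29 mitosis genes on the y axis, 1 point for each of the 18 arrays, coloured by code range and shaped by time. The arrays of codes 44-54 lie at 10.28 to 10.74 and 8.5 to 9.40, and those of codes 32-37 at 8.73 to 9.36 and 10.86 to 11.55.

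Enzymes that process collagen were higher in 7 of 12 cases, with none lower (median 0.67). Lox, the lysyl oxidase that cross-links collagen and elastin, had signals of 2976, 3894 and 4915 in codes 44-54, against 793, 1077 and 1437 in codes 32-37 (1.84 ± 0.16, adjusted p = 3.16e-05). Pcolce, which enhances the cleavage of procollagen, stood at 1.56 ± 0.17, Loxl1, a relative of Lox, at 1.39 ± 0.21, Serpinh1, the collagen chaperone HSP47, at 1.37 ± 0.15, and Bmp1, the procollagen C-proteinase, at 1.25 ± 0.17. Plod2, a lysyl hydroxylase, was 1.82-fold higher (0.87 ± 0.14, adjusted p = 0.00238). Apart from Bmp1, none of these genes overlapped between the ranges. The prolyl hydroxylases P4ha1 (0.32) and P4ha2 (0.37) were not called.

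Glycoproteins and proteoglycans of the matrix were higher in 15 of 25 cases and lower in 2 (median 0.82). With the arrays of like Eif2s3y signal within a range taken as a random block, 15 were higher and none lower. This alternative was chosen after seeing the data, and over all 25775 probe sets it called 1165 higher and 1028 lower. Fbln2, a fibulin of elastic fibres, had signals of 1349, 1464 and 1668 in codes 44-54, against 299, 330.0 and 395 in codes 32-37 (2.10 ± 0.11, adjusted p = 1.66e-06). Fn1, fibronectin, was bright, with signals of 8912, 10604 and 12820 in codes 44-54, against 1855, 2439 and 4138 in codes 32-37 (2.01 ± 0.18, adjusted p = 4.62e-05), or 4.02-fold higher. Nid1, which links laminin to collagen in basement membranes, stood at 1.72 ± 0.19, Mgp, an inhibitor of calcification, at 1.69 ± 0.17, Bgn, the proteoglycan biglycan, at 1.61 ± 0.17, and Sparc, a collagen-binding glycoprotein, at 1.58 ± 0.22. None of these genes, named as the largest called differences of the list, overlapped between the ranges. The genes that were lower were Tgfbi (-0.53) and Vcan, the proteoglycan versican (-0.89 ± 0.26, adjusted p = 0.0416). The call of Vcan was lost in 13 of 27 alternative settings. Efemp1, a further fibulin outside the list, had signals of 193, 351 and 569.8 in codes 44-54, against 15.8, 58.7 and 67.1 in codes 32-37 and was higher (2.45 ± 0.27, adjusted p = 0.000166), by 1.82 with 64 added in place of 16.

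The contractile and cytoskeletal genes of smooth muscle and myofibroblasts were higher in 8 of 12 cases and lower in none (median 1.29). Tagln, an actin-binding protein of smooth muscle, had signals of 3698, 4206 and 5461 in codes 44-54, against 914, 1346 and 1709 in codes 32-37 (1.75 ± 0.19, adjusted p = 0.000181). Acta2, smooth muscle actin, reached signals of 12358, 13734 and 15901 in codes 44-54, against 4254, 5817 and 6994 in codes 32-37 (1.34 ± 0.14, adjusted p = 0.000141). Myl9, a myosin light chain, stood at 1.62 ± 0.12, Tpm2, a tropomyosin, at 1.55 ± 0.19, Actg2, an enteric smooth muscle actin, at 1.45 ± 0.17, and Cald1, caldesmon, at 1.37 ± 0.19. Among the 4 that were not called were Vim (-0.43), Flna (-0.06) and Csrp1 (-0.10).

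Proteases of the matrix and their inhibitors split. Of 17 genes 8 were higher and 3 lower (median 0.54), where 8.97% and 9.47% of all genes were. Timp3, a matrix-bound inhibitor of metalloproteinases, was higher, with signals of 3088, 3351 and 4445 in codes 44-54, against 555, 625 and 1031 in codes 32-37 (2.29 ± 0.11, adjusted p = 9.78e-07). Timp1, a secreted inhibitor, had signals of 6341, 7567 and 9551 in codes 44-54, against 2491, 3066 and 4552 in codes 32-37 (1.22 ± 0.12), and Serpinf1, the secreted factor PEDF, stood at 1.07 ± 0.15. Mmp23 was higher too (1.59 ± 0.31, adjusted p = 0.00608). Mmp12, the elastase of macrophages, was lower, with signals of 444, 701 and 1406 in codes 44-54, against 1337, 2091 and 4034 in codes 32-37 (-1.58 ± 0.18, adjusted p = 0.000177). Here the ranges meet: the brightest array of codes 44-54 and the dimmest of codes 32-37 lie at different times. Mmp19 was lower as well (-1.12 ± 0.28, adjusted p = 0.0221), a call lost in 6 of 27 settings, and so was Adam8 (-0.32). With the random block 7 genes of the list were higher and 1 lower.

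Growth factors that stromal cells make or answer to were higher in 15 of 22 cases and lower in none (median 1.04). The fit without mcw036 and mcw037 called 16 higher and 1 lower (median 1.16). Bmp2, a bone morphogenetic protein, had signals of 122, 317 and 755 in codes 44-54, against 36.1, 62.9 and 148 in codes 32-37 (1.99 ± 0.23, adjusted p = 0.000269). Its 0 h signals were 315 and 318 in codes 44-54, against 36.1 and 54.9 in codes 32-37, and its 4 h signals 188 and 122 in codes 44-54, against 57.0 and 68.7 in codes 32-37. Inhba, the activin A subunit, stood at 1.54 ± 0.16, Kitl, the ligand of KIT, at 1.54 ± 0.31, and the matricellular factors Ccn1 and Ccn2 at 1.49 ± 0.23 and 1.48 ± 0.25. Pdgfb, a PDGF chain, had 0 h signals of 1363 and 1636 in codes 44-54, against 178 and 285 in codes 32-37, and 4 h signals of 3058 and 3058 in codes 44-54, against 1742 and 2414 in codes 32-37 (1.65 ± 0.30, adjusted p = 0.00375). Csf1, the cytokine of macrophage growth, was 2.32-fold higher (1.21 ± 0.13, adjusted p = 0.000135), and the IGF genes Igf1 (1.02) and Igf2 (1.32) were higher. Tgfb1 (0.40), Tgfb2 (0.70) and Tgfb3 (0.37) were not called.

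**Figure D4:**
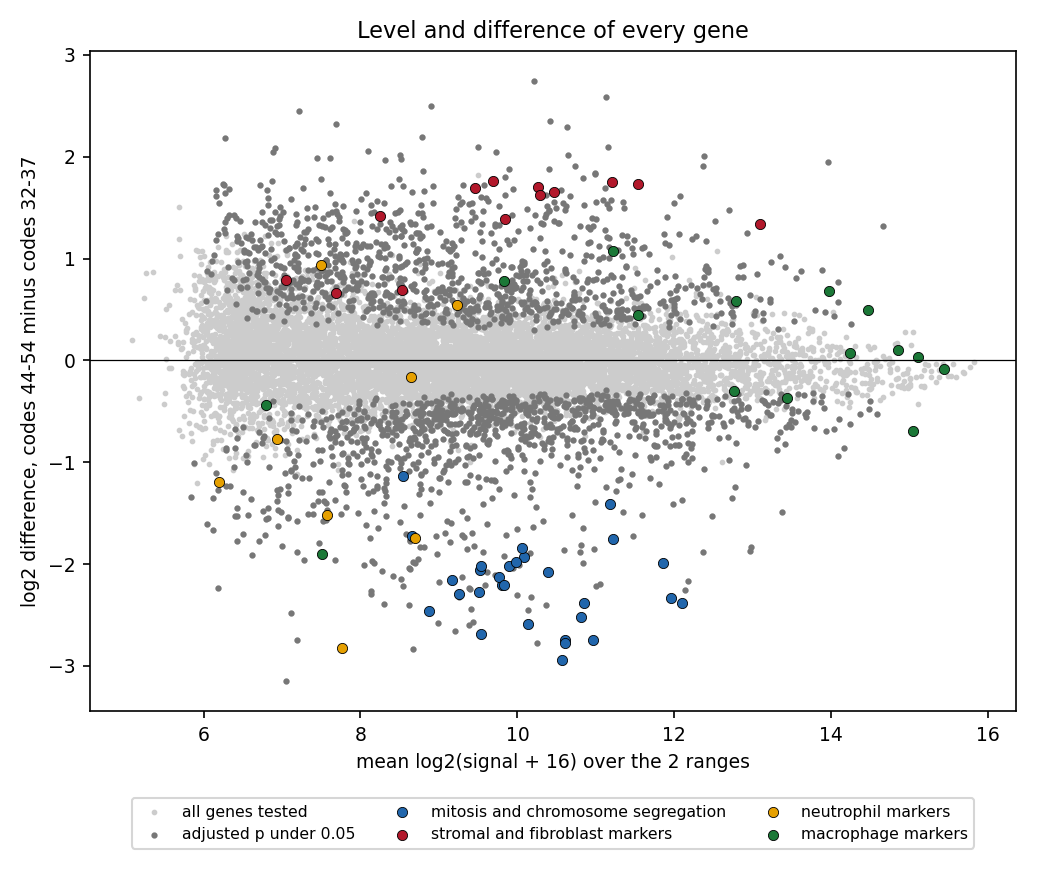
Log2 difference, codes 44-54 minus codes 32-37, on the y axis against the mean log2(signal + 16) over both ranges on the x axis for all 11721 genes, with 4 gene lists in colour. The mitosis genes all lie under 0 and 12 of the 13 stromal markers are called above it, while the macrophage markers, at the bright end, have a median of 0.07.

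Markers of macrophages went both ways. Of 15 markers 4 were higher and 1 lower (median 0.07), where 8.97% and 9.47% of all genes were. Csf1r, the receptor for CSF1, had signals of 27143, 36790 and 40584 in codes 44-54, against 27013, 33932 and 51089 in codes 32-37 (0.03 ± 0.13), and Lyz2, lysozyme, stood at -0.08, Cd68, a lysosomal glycoprotein, at 0.07, and Mpeg1, perforin-2 of macrophages, at 0.10; none of these was called. Cx3cr1, the fractalkine receptor, was higher (1.07 ± 0.18, adjusted p = 0.00274), as was Mertk, a receptor for apoptotic cells (0.78 ± 0.17, adjusted p = 0.0112). Mrc1, the mannose receptor, had signals of 16537, 20021 and 24674 in codes 44-54, against 9168, 13451 and 16421 in codes 32-37 (0.68 ± 0.18, adjusted p = 0.0247), and Adgre1, the F4/80 antigen, 22828, 27705 and 30338 in codes 44-54, against 16119, 19557 and 21810 in codes 32-37 (0.50 ± 0.12, adjusted p = 0.0192). Cd14, the coreceptor for bacterial lipopolysaccharide, was lower (-0.69 ± 0.19, adjusted p = 0.0303). Without mcw036 and mcw037 the calls of Mrc1 (adjusted p = 0.0702), Adgre1 (0.0563) and Cd14 (0.0636) were lost, and 2 markers were higher and 2 lower. With the random block 3 were higher and none lower.

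At 0 h, with 2 arrays a range, 2 of the 15 macrophage markers were lower and none higher, against 2.02% and 2.05% of all genes. Calls at 0 h depend on single arrays, as the counts over all probe sets given above show. Cd14 had signals of 14563 and 15106 in codes 44-54, against 40136 and 37964 in codes 32-37 (log2 difference -1.40, adjusted p = 0.0102). Marco, a scavenger receptor, had signals of 10.7 and 6.72 in codes 44-54, against 211 and 207 in codes 32-37 (-3.19, adjusted p = 0.0164). At 4 h Marco had signals of 1723 and 893 in codes 44-54, against 588 and 1044 in codes 32-37. Over all times Marco was not called (-1.90 ± 0.61, adjusted p = 0.0574).

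Lineage and maturation factors of macrophages were higher in 6 of 20 cases and lower in none (median 0.07), against 8.97% and 9.47% of all genes. Mitf, a factor of osteoclasts and of lysosome genes, had 0 h signals of 5390.1 and 4662 in codes 44-54, against 1246 and 1723 in codes 32-37, and 4 h signals of 9818 and 8976 in codes 44-54, against 6080.2 and 5212 in codes 32-37 (1.40 ± 0.19, adjusted p = 0.000708). Cebpa, a factor of myeloid commitment, stood at 1.34 ± 0.28, Egr1, an early gene linked to macrophage differentiation, at 1.16 ± 0.20, Irf8, a factor of monocytes, at 1.03 ± 0.23, Runx1 at 0.84 ± 0.16 and Maf at 0.82 ± 0.16. Spi1, which encodes PU.1, stood at 0.11, Cebpb at -0.59 and Klf4 at -0.44, none called. Of the progenitor markers, Sox4 was higher, with signals of 1086, 2462 and 3954 in codes 44-54, against 432, 776 and 1269.8 in codes 32-37 (1.62 ± 0.14, adjusted p = 3.34e-05), and Spn, the sialophorin CD43, was lower, with signals of 83.4, 136 and 203 in codes 44-54, against 321, 412 and 482 in codes 32-37 (-1.5 ± 0.19, adjusted p = 0.000427). The other 4 measured progenitor markers were not called.

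Genes of resident tissue macrophages were higher in 5 of 18 cases and lower in none (median 0.13), against 8.97% and 9.47% of all genes. The fit without mcw036 and mcw037 called 4 higher and 1 lower, and the median fell to 0.02. Apoe, a lipid carrier, was bright, with signals of 24471, 32520 and 34543 in codes 44-54, against 4365, 9007 and 11861 in codes 32-37 (1.95 ± 0.17, adjusted p = 3.45e-05), and its ranges did not overlap. F13a1, the coagulation factor XIII A chain, had signals of 2740.3, 4521 and 8237 in codes 44-54, against 652, 1147 and 1741 in codes 32-37 (2.09 ± 0.32, adjusted p = 0.00157). Vcam1, an adhesion molecule (1.15 ± 0.21), and C1qa, a chain of complement C1q (0.77 ± 0.14), were higher, while C1qb (-0.02) and C1qc (0.48) were not called. Of 12 genes of alternative activation, Fn1 and Mrc1 were higher and 3 were lower, where 8.97% and 9.47% of all genes were. Without mcw036 and mcw037 1 was higher and 3 were lower, and with the random block 2 and 2. These were Tgm2, a transglutaminase, Chil3, the chitinase-like protein Ym1, and Arg1, arginase. Tgm2 had 0 h signals of 1895 and 2434 in codes 44-54, against 16096 and 12572 in codes 32-37 (-1.87 ± 0.28 over all times, adjusted p = 0.00147). Chil3 was dim, with signals of 2.04, 30.4 and 46.9 in codes 44-54, against 59.9, 99.9 and 145 in codes 32-37 (-1.60 ± 0.34). Within the 12 arrays it was over an array median in codes 32-37 alone. Arg1 was 2.83-fold lower, a call lost in 9 of 27 settings.

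Genes of monocytes and early myeloid cells were split evenly, with 4 of 15 higher and 4 lower (median -0.25), and 3 and 3 with the random block. The fit without mcw036 and mcw037 called 4 higher and 5 lower. Of all genes 8.97% were higher and 9.47% lower. Fn1, F13a1, Plac8 (0.94 ± 0.19) and Cd93 (0.49) were higher. Treml4 (-1.63 ± 0.24), Napsa, an aspartic protease (-1.16 ± 0.17), S100a10 (-0.82) and Vcan were lower. Of the genes of MHC class II and antigen presentation, 1 of 13 was higher and 4 were lower (median -0.23), and 1 and 5 without mcw036 and mcw037. Cd86, a ligand of CD28, had signals of 339, 484 and 1482 in codes 44-54, against 869, 1274 and 2334 in codes 32-37 (-1.09 ± 0.17, adjusted p = 0.00202), with ranges that overlap when the times are pooled but not within a time. H2-Eb1 (-0.81 ± 0.17), H2-DMa (-0.64 ± 0.11) and H2-Aa (-0.62 ± 0.15) were lower, H2-Ab1 (-0.64) and the invariant chain Cd74 (-0.19) were not called, and Cd40, a receptor of the TNF family, was higher (0.95 ± 0.17, adjusted p = 0.00375).

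Of 20 lysosomal genes 1 was higher and 2 were lower (median -0.11), where 8.97% and 9.47% of all genes were. With the random block none was higher and 2 were lower, and without mcw036 and mcw037 none was higher and 3 were lower. Neu1, a sialidase (-0.67 ± 0.14), and Gla, an alpha-galactosidase (-0.65 ± 0.14), were lower. Npc1, a cholesterol transporter, was higher (0.49 ± 0.14), a call lost in 16 of 27 settings. The cathepsins Ctsb (-0.03), Ctsd (-0.08), Ctsl (-0.03) and Ctss (-0.09) were not called. Of 18 genes of lipid handling 4 were higher and 2 lower. Beside Apoe the higher ones were Scd1, a desaturase (0.87 ± 0.15), Mylip, which degrades the LDL receptor (0.59 ± 0.15), and Fasn, the fatty acid synthase (0.56 ± 0.14). Abcg1, a cholesterol efflux pump (-0.83 ± 0.15), and Fabp5, a fatty acid binding protein (-0.62 ± 0.11), were lower. The calls of Mylip and Fasn were lost in 5 and 8 of 27 settings, and with the random block 2 genes of this list were higher and 2 lower.

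Receptors for uptake were higher in 8 of 21 cases and lower in 1 (median 0.42), against 8.97% and 9.47% of all genes. The fit without mcw036 and mcw037 called 7 higher and 2 lower, and the median fell to 0.21. Megf10, a receptor for apoptotic cells, had signals of 71.7, 131 and 173 in codes 44-54, against 4.91, 31.6 and 98.2 in codes 32-37 (1.65 ± 0.36, adjusted p = 0.0101). It did not pass a filter asking for a signal over the array's median on 6 of the 12 arrays. Axl, a relative of Mertk, had signals of 1186, 1471 and 1799 in codes 44-54, against 452, 626 and 1153 in codes 32-37 (1.18 ± 0.20, adjusted p = 0.00245), and Clec7a, the beta-glucan receptor dectin-1, 2299.8, 2587 and 3784 in codes 44-54, against 1049, 1309 and 1436 in codes 32-37 (1.15 ± 0.15, adjusted p = 0.000628). Neither Axl nor Clec7a overlapped between the ranges. Colec12 (0.84 ± 0.09) and Stab1 (0.83 ± 0.18), both scavenger receptors, were higher. Clec4e, which encodes mincle, a receptor for mycobacterial glycolipid, was lower, with 0 h signals of 2646 and 2833 in codes 44-54, against 12425 and 10880 in codes 32-37. At 4 h they were 36222 and 41657 in codes 44-54, against 36730 and 41984 in codes 32-37. Its call over all times (-0.94 ± 0.28, adjusted p = 0.0427) was lost in 18 of 27 settings. The random block left 6 higher and none lower.

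Among integrins and adhesion molecules 8 of 22 were higher and 1 was lower (median 0.34), against 8.97% and 9.47% of all genes. Ncam1, a neural cell adhesion molecule, had signals of 127, 289 and 495 in codes 44-54, against 56.8, 80.0 and 146 in codes 32-37 (1.5 ± 0.25, adjusted p = 0.00224). Itgb3, the beta subunit of the vitronectin receptor, stood at 1.42 ± 0.33 and its partner Itgav at 0.89 ± 0.21, and Itga8, an integrin of mesenchymal cells, at 1.16 ± 0.17. Itgb7, the beta subunit of gut-homing integrins, was lower, with signals of 26.3, 122 and 246 in codes 44-54, against 269.7, 356 and 402 in codes 32-37 (-1.51 ± 0.32, adjusted p = 0.00921). The leukocyte subunits Itgam (0.45), Itgb2 (-0.12) and Itgal (0.27) were not called. The random block left 5 higher and 1 lower.

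Neutrophil genes were lower in 4 of 8 cases, in 3 with the random block, and higher in 1 (median -0.98). Of all genes 9.47% were lower and 8.97% higher. S100a9, a subunit of calprotectin, had signals of 12.2, 78.9 and 185 in codes 44-54, against 400.0, 521 and 824 in codes 32-37 (-2.83 ± 0.25, adjusted p = 3.45e-05), or 7.10-fold lower. Its partner S100a8 had signals of 93.3, 199 and 575 in codes 44-54, against 377, 811 and 1242 in codes 32-37 (-1.75 ± 0.23), with ranges that meet when times are pooled. Ngp, a protein of neutrophil granules, stood at -1.52 ± 0.16, and Camp, the cathelicidin, at -0.77 ± 0.17. Mmp9 was the gene that was higher (0.94 ± 0.21, adjusted p = 0.0106). The neutrophil markers not kept had signals of 91.2 or less. Il1r2, a decoy receptor for interleukin 1 found on neutrophils and macrophages, was lower: its signals were 7.84, 28.6 and 91.2 in codes 44-54, against 252, 377 and 581 in codes 32-37 (-3.15 ± 0.37, adjusted p = 0.000274). As the arrays of codes 44-54 lie about or under the median of an array, the size depends on the constant added: the difference was -3.85 with 1 and -2.22 with 64. Trem1, a receptor that amplifies inflammatory signals, had signals of 114, 272 and 501 in codes 44-54, against 849, 1791 and 3637 in codes 32-37 (-2.57 ± 0.28, adjusted p = 0.000157). Gng4, a gamma subunit of G proteins, had signals of 66.6, 127 and 349 in codes 44-54, against 474, 1037 and 2328 in codes 32-37 (-2.83 ± 0.24, adjusted p = 2.87e-05). All 3 genes kept the 2 ranges apart.

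Ppbp, the platelet chemokine CXCL7, was higher, with signals of 2079, 3295 and 4510 in codes 44-54, against 249, 362 and 914 in codes 32-37 (2.75 ± 0.21, adjusted p = 1.71e-05), or 6.71-fold. Pf4, another platelet chemokine that macrophages also make, was bright in both ranges, with signals of 32084, 41240 and 49043 in codes 44-54, against 13921, 15475 and 22141 in codes 32-37 (1.32 ± 0.15, adjusted p = 0.000196). The other 3 measured erythroid and megakaryocyte markers were not called. Of the endothelial, epithelial and mesothelial markers, Emcn (1.36 ± 0.30) and Cdh5 (0.67 ± 0.12) were higher out of 6, of the B cell markers Ebf1 (1.36 ± 0.28) out of 3, and of the osteoclast markers Itgb3 and Mmp9 out of 8. Ebf1 encodes a factor that adipocytes and stromal cells also express. Ccr7 was lower (-1.66 ± 0.41, adjusted p = 0.0184) among 4 dendritic cell markers, a call lost in 3 of 27 settings. Neither the 2 T cell markers nor the 1 NK cell marker kept was called. Of the mast cell, basophil and eosinophil markers only Mcpt8 was kept, and it was not called, so mast cell markers were not tested. For T cells Zap70 stood at -0.57 ± 0.48 and Cd8a at -0.03 ± 0.43, for NK cells Prf1 at 0.19 ± 0.33, and for basophils Mcpt8 at 0.40 ± 0.20.

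Inflammatory cytokines and chemokines were higher in 6 of 26 cases and lower in none (median 0.21), against 8.97% and 9.47% of all genes. With the random block 4 were higher. In the fit without mcw036 and mcw037, 6 were higher and 1 was lower, and the median fell to 0.07. Cxcl14, a chemokine of epithelia and stroma, had signals of 202, 245 and 421 in codes 44-54, against 55.7, 107 and 134 in codes 32-37 (1.33 ± 0.15, adjusted p = 0.00019). Ccl6, a macrophage chemokine, had signals of 12730, 13385 and 14785 in codes 44-54, against 5777, 6887 and 8581 in codes 32-37 (0.97 ± 0.11, adjusted p = 0.000166). Tnf had 0 h signals of 263 and 261 in codes 44-54, against 114 and 34.3 in codes 32-37, and 4 h signals of 20302 and 16402 in codes 44-54, against 10254 and 10133 in codes 32-37 (1.10 ± 0.24, adjusted p = 0.0113). Ccl3 (1.19 ± 0.21) and its relative Ccl4 (0.62 ± 0.16) were higher, and so was Ptgs2, the inducible cyclooxygenase (0.74 ± 0.20); the calls of Ccl4 and Ptgs2 were lost in 11 and 13 of 27 settings. At 0 h 5 of the 26 genes were higher and 1 was lower, against 2.05% and 2.02% of all genes. Calls at 0 h rest on 2 arrays a range and depend on single arrays. Il10, named in the series title, had 0 h signals of 282 and 243 in codes 44-54, against 36.3 and 59.6 in codes 32-37 (2.14, adjusted p = 0.0296). Its 4 h signals were 2703 and 1643 in codes 44-54, against 2980.3 and 1243 in codes 32-37, and over all times it was not called (0.73 ± 0.37, adjusted p = 0.224). Il1b was the gene that was lower at 0 h, with signals of 181 and 252 in codes 44-54, against 3538 and 1131 in codes 32-37 (-3.14, adjusted p = 0.0238), and it was not called over all times (adjusted p = 0.272). Tlr2, the receptor of the title, was not called (0.32 ± 0.13, adjusted p = 0.114), with 0 h signals of 9878 and 6298 in codes 44-54, against 6046 and 5594 in codes 32-37. Further genes of the title were not analysed here.

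Of 25 interferon-stimulated genes none was called over all times (median -0.14). The median difference was -0.50 at 0 h, -0.45 at 1 h and 0.99 at 4 h, against medians over all genes of 0.02, -0.01 and -0.03. At 0 h 24 of 25 differences were negative and at 4 h 24 of 25 were positive. At 4 h 3 of the 25 were higher (156 of all genes, 1.33%) and none was lower (222, 1.89%). These were Mx1, which blocks viral replication, Iigp1, a GTPase that attacks vacuoles, and Ifit3, which binds viral RNA. Ifit3 had 4 h signals of 11672 and 8650.5 in codes 44-54, against 1924 and 1484 in codes 32-37 (2.56, adjusted p = 0.00484), and 0 h signals of 1343 and 1014 in codes 44-54, against 2340.1 and 1459.5 in codes 32-37. Mx1 had 4 h signals of 8643 and 4883 in codes 44-54, against 1320.5 and 800.0 in codes 32-37 (2.64, adjusted p = 0.00557). Oas1a (-0.15 ± 0.15) and Ifi27l2a (-0.34 ± 0.12), the brightest of the list, were not called over all times. The list mean at 4 h was 12.39 and 11.86 on the arrays of codes 44-54, against 11.23 and 10.78 on those of codes 32-37, of which 1 is mcw037 with its high 3' to 5' ratio. Without mcw036 and mcw037, where 1 array of codes 32-37 is left at 4 h and is taken to vary like the others, the median at 4 h was 0.61 and the same 3 genes were higher, at adjusted p of 0.0443 for Ifit3 and Mx1 and 0.0480 for Iigp1. Over all genes 82 were then higher and 78 lower at 4 h.

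**Figure D5:**
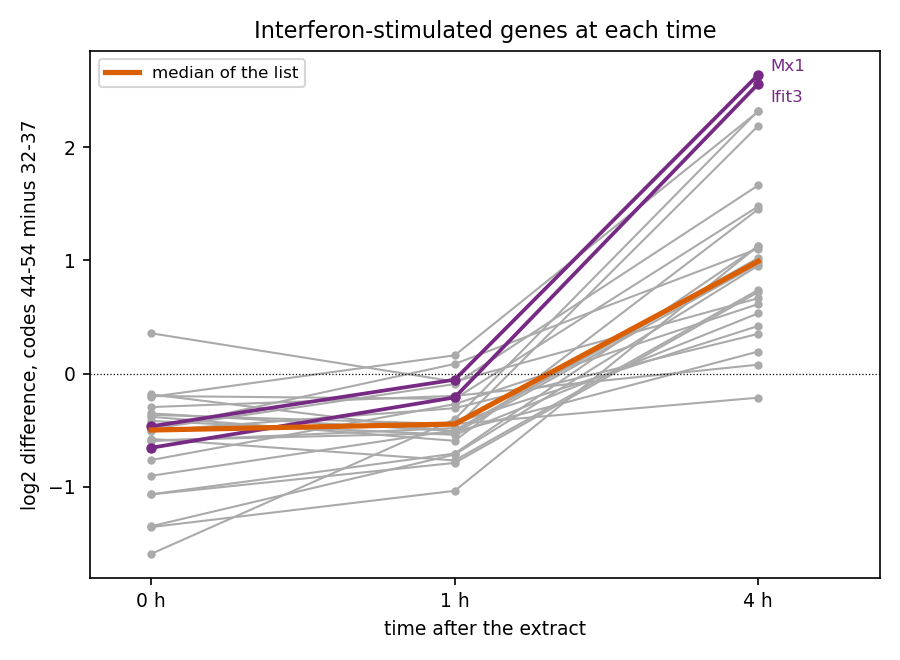
Log2 difference, codes 44-54 minus codes 32-37, on the y axis at 0, 1 and 4 h for each of 25 interferon-stimulated genes (grey lines, with Mx1 and Ifit3 in purple) and their median (orange line). The median lies at -0.50 and -0.45 at 0 h and 1 h and at 0.99 at 4 h.

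The test of the interaction of range and time itself called 0 of 25775 probe sets (0%), with 1564 at an unadjusted p under 0.05 and a smallest adjusted p of 0.163; limma with a trended and robust prior called 25. The 5 genes with the smallest p were Hdac9, Cd69, Pml, Ifit3 and Pkib, and none of their time patterns passed the adjustment. Hdac9, a histone deacetylase, had 0 h signals of 1006 and 918 in codes 44-54, against 66.2 and 95 in codes 32-37, and 4 h signals of 344 and 344 in codes 44-54, against 625 and 342 in codes 32-37. Pkib, an inhibitor of protein kinase A, had 0 h signals of 1973 and 1611 in codes 44-54, against 194 and 246 in codes 32-37, and 4 h signals of 331 and 237 in codes 44-54, against 187 and 168 in codes 32-37. Cd69, an early activation antigen, had 4 h signals of 5439.8 and 4234 in codes 44-54, against 628 and 467 in codes 32-37, while its 0 h signals were 95.4 and 99.0 in codes 44-54, against 62.1 and 38.0 in codes 32-37. Pml, a nuclear body protein, had 4 h signals of 1290 and 1017 in codes 44-54, against 497 and 380.0 in codes 32-37, and 0 h signals of 457 and 455 in codes 44-54, against 677 and 638 in codes 32-37. The signals of the 2 ranges lay further apart at 0 h than at 4 h in Hdac9 and Pkib and further apart at 4 h in Cd69, Pml and Ifit3. The call of Hdac9 over all times (1.98 ± 0.54, adjusted p = 0.0294) was lost in 13 of 27 settings.

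Complement genes were higher in 5 of 11 cases, in 4 with the random block, and lower in none (median 0.47). Of all genes 8.97% were higher and 9.47% lower. Cd55, which speeds the decay of complement convertases, had signals of 70.8, 98.5 and 182 in codes 44-54, against 22.6, 30.5 and 55.4 in codes 32-37 (1.36 ± 0.20, adjusted p = 0.00123). Serping1, the C1 inhibitor, had signals of 165, 231 and 289 in codes 44-54, against 62.2, 80.3 and 114 in codes 32-37 (1.26 ± 0.15, adjusted p = 0.000344). C3ar1, a receptor for the anaphylatoxin C3a, stood at 0.57 ± 0.10, and Cd59a, which blocks the membrane attack complex, at 0.47 ± 0.14, a call lost in 16 of 27 settings. Receptors for chemokines and growth factors were higher in 6 of 26 cases and lower in 3 (median 0.15), the latter near the 9.47% of all genes. Ccr3, the eotaxin receptor, was dim, with signals of 91.1, 108 and 188 in codes 44-54, against 6.22, 32.1 and 57.5 in codes 32-37 (1.73 ± 0.37, adjusted p = 0.0101). Every codes 32-37 signal of Cd55 and Ccr3 lay under 74.7, the lowest array median of that range. Within the 12 arrays both were therefore over an array median in codes 44-54 alone. Tgfbr1, a TGF-beta receptor, had signals of 3943, 9490.3 and 11027 in codes 44-54, against 2554, 4464 and 5354 in codes 32-37 (0.90 ± 0.12, adjusted p = 0.000606), and beside Il1r2 and Ccr7 the receptor gene Il6ra was lower (-0.56). With the random block 4 were higher and 1 lower.

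Genes of glycolysis and hypoxia were lower in 8 of 22 cases and higher in none (median -0.28), 7 of them with the random block. Slc16a3, a lactate exporter, had 0 h signals of 199.7 and 197 in codes 44-54, against 1699 and 711 in codes 32-37 (-1.85 ± 0.34 over all times, adjusted p = 0.00423). Tpi1 (-0.88 ± 0.10), Aldoa (-0.69 ± 0.12) and Ldha (-0.68 ± 0.10), enzymes of glycolysis, were lower, and Ldha had signals of 11710, 12808 and 15206 in codes 44-54, against 19032, 21072 and 24750 in codes 32-37. The glucose transporter Slc2a1 (-0.62 ± 0.11) and Bnip3, a hypoxia target in mitophagy (-0.62 ± 0.14), were lower as well, while Hk2 (0.05), Pkm (-0.24) and Vegfa (-0.14) were not called. Of 18 targets of oxidative stress 1 was higher and 3 lower (median -0.08), near the 8.97% and 9.47% of all genes, and with the random block none was higher and 1 lower. Mt1, a metallothionein, was lower (-0.75 ± 0.18, adjusted p = 0.0147). Mt2 (-0.69 ± 0.20), Slc7a11, a cystine transporter (-0.69 ± 0.20), and Gstm2, a glutathione transferase that was higher (0.61 ± 0.16), lost their calls in 16, 13 and 8 of 27 settings.

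The largest higher genes beyond those lists had varied roles. Hpgd, which breaks down prostaglandins, had 0 h signals of 13873 and 10785 in codes 44-54, against 1437 and 1650 in codes 32-37, and 4 h signals of 1654 and 1040.3 in codes 44-54, against 504 and 267 in codes 32-37 (2.59 ± 0.25, adjusted p = 6.18e-05). Rasgrp3, an exchange factor for Ras, had 0 h signals of 2576 and 1747 in codes 44-54, against 235 and 207 in codes 32-37, and 4 h signals of 270.2 and 201 in codes 44-54, against 135 and 102 in codes 32-37 (2.49 ± 0.38, adjusted p = 0.00146). In both genes the ranges were further apart at 0 h than at 4 h, which the interaction test did not call. Aldh1a3, an enzyme of retinoic acid synthesis, had signals of 319, 438 and 641 in codes 44-54, against 48.5, 74.7 and 113 in codes 32-37 (2.32 ± 0.19, adjusted p = 2.56e-05). Prss23, a secreted serine protease, had signals of 1418, 3461 and 5472 in codes 44-54, against 320.4, 699 and 813 in codes 32-37 (2.35 ± 0.34), and S1pr3, a receptor for sphingosine 1-phosphate, 1146, 1670.5 and 2500.2 in codes 44-54, against 245, 418 and 591 in codes 32-37 (2.05 ± 0.26). Those 3 genes did not overlap between the ranges. Cd248, the endosialin of pericytes and fibroblasts, had signals of 73.9, 156 and 203 in codes 44-54, against 6.29, 14.3 and 103 in codes 32-37 (2.19 ± 0.35, adjusted p = 0.00213). It was dim in codes 32-37, and its difference ran from 1.29 to 3.03 over 27 alternative settings. Gpr34, a receptor for lysophosphatidylserine, stood at 2.05 ± 0.37, and Cacna1d, a calcium channel subunit, at 2.06 ± 0.26. Klra2, a killer lectin-like receptor that varies between mouse strains, was the called gene among 9 sex-linked and strain-variable genes (0.77 ± 0.20, adjusted p = 0.0244, lost in 8 of 26 settings), and Xist stood at 0.25 and Eif2s3y at -0.05.

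Without mcw036 and mcw037, 893 of the 1051 higher and 873 of the 1110 lower genes kept their call. Of the 157 called named genes 9 lost it, and no direction reversed. The differences given next are examples that kept it. The log2 difference was -3.12 for Ccnb2 (adjusted p = 1.92e-05), -2.94 for S100a9 (adjusted p = 0.000443), 2.31 for Timp3 (adjusted p = 1.92e-05), 1.73 for Col1a1 (adjusted p = 0.000154) and 1.74 for Apoe (adjusted p = 0.000178). The stromal markers were again higher in 12 of 13 cases, with a median of 1.70. With arrays of like Eif2s3y signal in a range as a random block, 29 mitosis genes were lower, 13 collagens, 12 stromal markers and 15 matrix glycoproteins were higher, and 1165 and 1028 probe sets were called in all.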

How the data were processed

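The deposited table holds signal intensity values, 1 per probe set and array, on a linear scale. Per the submitters' processing notes the authors used MAS5 and GCOS, Affymetrix's software for probe set signals, with no version given. The trimmed mean of each array is 500.003 or 500.004, as a scaling to a common target leaves it. Detection calls were not used. Of 45101 probe sets, 64 are controls and 34958 carry 1 gene symbol in the platform annotation supplied for this work, of which 34754 matched the RefSeq gene table of GRCm38.p6. The filter required a signal over the array's median on 4 or more of the 18 arrays, and 25775 probe sets (57.1%) passed. Of the 12 arrays compared, dim genes such as Ccr3, Cd55, Efemp1 and Chil3 were over an array's median in 1 range alone. The filter may have kept them through the range where they are high, so their adjusted p is not separate support. The same may hold for Cd248 and Col2a1, whose median signals in codes 32-37 lay under 74.7, the lowest array median of that range. Values were taken as log2(signal + 16). R 4.3.3 and limma 3.58.1 fitted range and time (lmFit, eBayes) on 12 arrays, with 1 mean for each range and time in the fits at single times, and Benjamini-Hochberg adjustment at 0.05. On simulated data of this comparison over 25775 probe sets the fit recovered 18% of 1.5-fold, 56% of 2-fold, 86% of 4-fold and 100% of 8-fold changes, with 14 false calls. The simulated noise was normal and independent between arrays, with 50 probe sets changed at each fold. In the real arrays 29.1% of the variance left after range and time lay on 1 component. The recovery and the false calls may therefore not carry over to the real data. Arrays of the same range and time correlated at 0.936 to 0.970, arrays of the 2 ranges at the same time at 0.921 to 0.949, and no pair was identical. The number of arrays limits the precision.

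The members and the 38 gene lists were chosen with earlier results of these data known, and some genes stand in several lists. Genes named by rule are the 15 largest called differences in each direction with the same sign at every time, up to 6 called members of each list or the 2 brightest, the title's genes, and 5 by the interaction test. Others, such as Mki67, Marco, Il1b, Mx1, Ube2c and most members given as not called, were chosen after their values were seen. The kept probe set with the brightest mean stood for its gene. For 7 genes other probe sets were called in both directions (Alcam, Anapc1, Crat, Edem1, Nsl1, Rps24 and Smarcal1). The genes nearest to the threshold of 0.05 had adjusted p of 0.0498 inside it and 0.0501 outside it. The random block of arrays of like Eif2s3y signal, strata of time and Eif2s3y, the fit at 4 h without mcw036 and mcw037, and Eif2s3y or the Gapdh ratio as covariates, were added after seeing the data.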

Additional observations from a re-analysis of the deposited data

Results flagged for a closer look

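In each range every named gene and list mean was checked for a single array far from the other 5, after the mean of the 4 arrays of the same time was subtracted. Of 414 such sets 21 held one, where chance gives about 1 in 20. The value given is the gap to the nearest other array as a share of the range's whole spread.

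In codes 44-54 mcw049 stood high for Aspm (0.768), Scd1 (0.701) and Cx3cr1 (0.692). mcw044 stood low for Axl (0.757) and Serping1 (0.745) and high for Ccl3 (0.689). mcw046 stood low for Sox4 (0.666) and Pf4 (0.632) and high for Fen1 (0.663). mcw047 was high for Ptgs2 (0.715) and mcw054 low for Fasn (0.669).

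In codes 32-37 mcw036, an array with a high Gapdh ratio, stood high for Mcm10 (0.778), Fasn (0.726) and Slc7a11 (0.702) and low for Cdkn2c (0.730). mcw034 stood high for Hpgd (0.776), Mt2 (0.694) and Npc1 (0.683). mcw035 was low for Tnf (0.837) and high for Col1a1 (0.733), and mcw037 was low for the mean of monocyte and early myeloid genes (0.645).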

How the results depend on the processing

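Of 157 called named genes 116 kept their call in each of the 27 alternative settings that gave them a value, and no direction reversed. Among these, Ccr3, Cd55, Chil3 and Megf10 had a value in 26 settings, as a filter on 6 of the 12 arrays left them out. The calls of 41 were lost in at least 1, most often Clec4e (18), Cd59a (16), Mt2 (16), Npc1 (16) and Cd14 (14). The counts of higher and lower probe sets were 1438 and 1113 with no filter on dim probe sets, 1011 and 814 without the time block, and 1165 and 1028 with the random block (consensus correlation 0.196), against 2159 and 1793. At 4 h 82 genes were higher and 78 lower without mcw036 and mcw037, against 156 and 222. At 0 h, against 457 and 357 probe sets, the counts were 123 and 162 with no filter, 1657 and 1075 with array weights, 777 and 592 with trend and robust priors, and 24 to 551 and 46 to 377 with single arrays left out. The interaction called 25 probe sets with trend and robust priors and 0 to 1 with single arrays left out, against 0. Calls on the higher side made up 54.6% of all, 44.7% with each array centred on its median and 48.5% after quantile normalization. Of 1026 list medians under these settings 49 moved by over 1 SD. The cause of these shifts was not tested. The labels carry no replicate numbers by which arrays could be paired. With time and the side of Eif2s3y together as strata, which hold 1 array of each range and were chosen after seeing the data, 1973 probe sets were higher and 1574 lower, and with the Eif2s3y signal as a covariate 2444 and 2046. Signals near 100 and less lie at the median of an array, so differences of dim genes such as Il1r2 and Chil3 are uncertain in size.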
